A study of Mus musculus with 53 samples.

Results

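Ribosome-bound RNA of endothelial cells was set against the RNA of the whole heart in adult mice in which Tie2-Cre switches on a ribosome tag. Of the 34306 genes in the deposited table, 12697 (37.0%) were read at 1 RPKM or more (reads per kilobase of transcript relative to library size) in Tie2 TRAP RNA or in Tie2 input RNA, and these were described. Of them, 9932 reached 1 RPKM in both libraries, 1995 only in TRAP and 770 only in input. Cblb, at 0.739 RPKM in input but 1.00 RPKM in TRAP, lay just inside this limit, and Gm2415, at 0.418 and 0.999 RPKM, just outside it.

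TRAP, translating ribosome affinity purification, recovers tagged ribosomes from a tissue lysate together with the RNA they carry, and input is the RNA of the same kind of lysate before the pull-down. The Tie2 hearts were adult and had no surgery, and gave 1 library of each fraction in the deposited table. No comparison between them therefore has a replicate check or a p-value. CAG hearts, in which the tag is on in all lineages per the labels of the first deposit, served as the reference. They gave 1 library of each fraction without surgery, 2 of each after sham surgery, and 2 of each after banding, a ligature of the ascending aorta. The strain was a mixed 129 and C57BL background, per the first deposit's labels. RNA was pooled before library preparation. The sex of the mice without surgery is not given in the labels.

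Tie2 (Tek) is the receptor for angiopoietins on endothelial cells, the flat cells that line blood vessels, lymphatic vessels and the chambers of the heart. In the heart most of them are capillary cells, which lie beside nearly every muscle fibre, pass fatty acids on to it, and answer blood flow with nitric oxide and other mediators. Cre driven by Tie2 is known to act also in blood-forming cells and so in leukocytes that descend from them. The heart's RNA comes largely from cardiomyocytes, whose sarcomere and mitochondrial transcripts are among the most abundant known.

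The input library held 50271246 reads and the TRAP library 38719997, so that on a transcript of 1 kb 1 RPKM stood for 50 and 39 reads. Where a gene has a pair of levels, the input level comes first and the TRAP level second. Intervals below are 95% intervals from the reads and cover counting error only. A difference means log2(RPKM + 1) in TRAP minus that in input, which shrinks the difference of genes with levels around 1 RPKM or less. A gene is called past 2-fold at a difference of 1 or more, or -1 or less, and within 2-fold otherwise. The ratio of the RPKM levels of a gene called within 2-fold can thus exceed 2-fold. Between the 2 libraries of a CAG group, 0.118% of the same genes were past 2-fold in sham input, 0.291% in sham TRAP, 0.189% in band input and 2.54% in band TRAP. Between Tie2 input and the CAG input without surgery, 2.65% were. In bulk RNA, fewer cells of a type and less RNA per cell cannot be told apart.

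The 5 genes that mark the endothelium here were 10.9-fold to 24.7-fold higher in Tie2 TRAP than in Tie2 input. S1pr1, the sphingosine-1-phosphate receptor that steadies the vessel wall, was read at 8.17 RPKM in input but 202 RPKM in TRAP, 24.7-fold higher (23.3 to 26.2). Cav1, the coat protein of caveolae, was read at 23 and 453 RPKM, 19.7-fold higher (19 to 20.4). Pecam1, a junction protein of all endothelial cells, was read at 25.7 and 398 RPKM, 15.5-fold higher (15 to 16). Where every lineage carried the tag, the TRAP and input levels of these genes overlapped. In the 5 CAG TRAP libraries S1pr1 lay between 5.92 and 11.8 RPKM, and in the 6 inputs between 6.14 and 8.17 RPKM. Cav1 lay between 15.5 and 33.0 RPKM in CAG TRAP and between 19.5 and 28.0 RPKM in the inputs. Cdh5, the cadherin of endothelial junctions, went from 19.2 to 210 RPKM, 10.9-fold higher (10.6 to 11.3), with 12.3 to 16.8 RPKM in CAG TRAP. Ly6c1, a surface protein of heart capillaries, went from 129 to 2421 RPKM, 18.8-fold higher (18.3 to 19.3), with 92.6 to 194 RPKM in CAG TRAP. For all 5 genes Tie2 TRAP stood above all 6 inputs and all 5 CAG TRAP libraries, with no overlap. That holds for 60.3% of all 12697 genes, while 16.4% lay below all of these libraries, so it does not set the 5 genes apart. Ly6c1 has a near-identical neighbour, Ly6c2, and its value is uncertain for that reason.

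**Figure D1:**
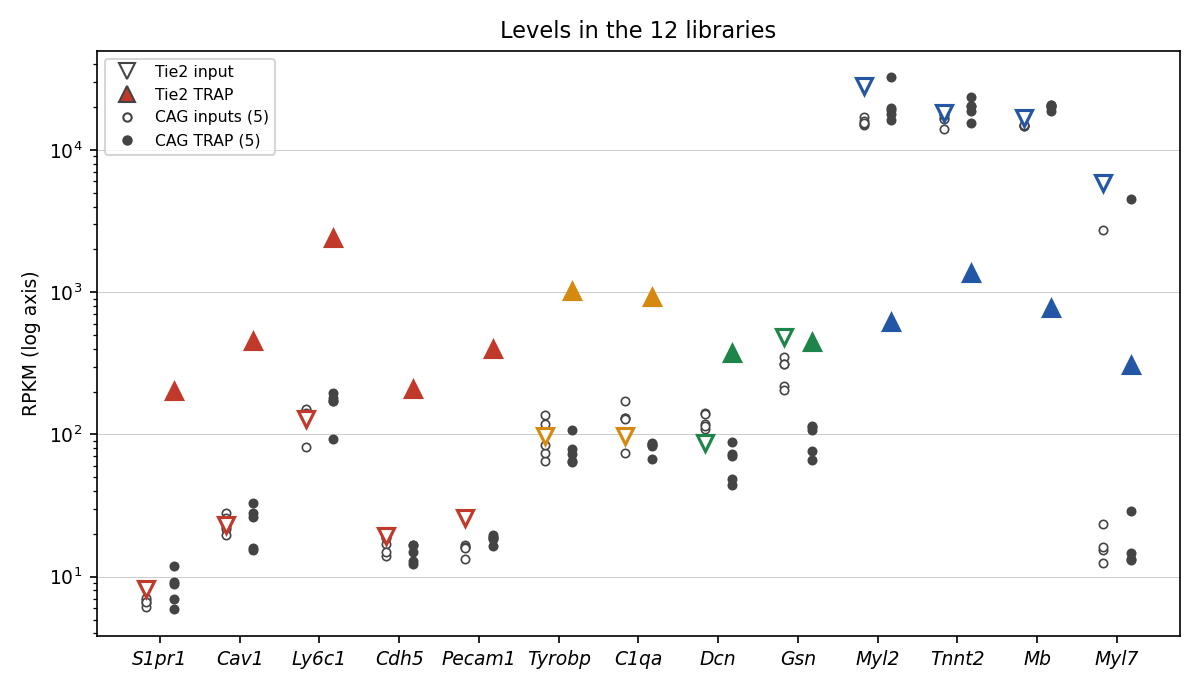
Levels of 13 genes in the 12 libraries, in RPKM on a log axis. Coloured triangles stand for the Tie2 libraries (open for input, filled for TRAP) and circles for the CAG libraries (open for the 5 inputs, filled for the 5 TRAP libraries); the filled triangles of S1pr1, Cav1, Ly6c1, Cdh5 and Pecam1 sit above all circles, and those of Myl2, Tnnt2 and Mb sit below all circles.

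Across all 12697 genes the difference had a median of 0.61, with quartiles of -0.21 and 1.27, and 4335 genes (34.1%) were past 2-fold higher in TRAP and 1561 (12.3%) lower. In the unoperated CAG hearts 111 of the same genes (0.874%) were past 2-fold higher and 814 (6.41%) lower, around a median of -0.24. An RPKM value is a share of the library's reads, and the balance of the Tie2 counts depended on the scale. With the median set to 0, 2066 genes (16.3%) were past 2-fold higher and 2758 (21.7%) lower. A trimmed mean of log ratios moved the median of all genes by -0.57 and quantile normalization by -0.47, so lists of genes are best read against 0.61. A list median under 0.61 falls below 0 once the median of all genes is set to 0. The genes past 2-fold higher held 16.4% of the reads of input and 62.2% of those of TRAP, and the genes past 2-fold lower 58.0% and 8.07%. The 50 most abundant genes took 32.6% of the reads of input and 21.7% of those of TRAP.

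**Figure D2:**
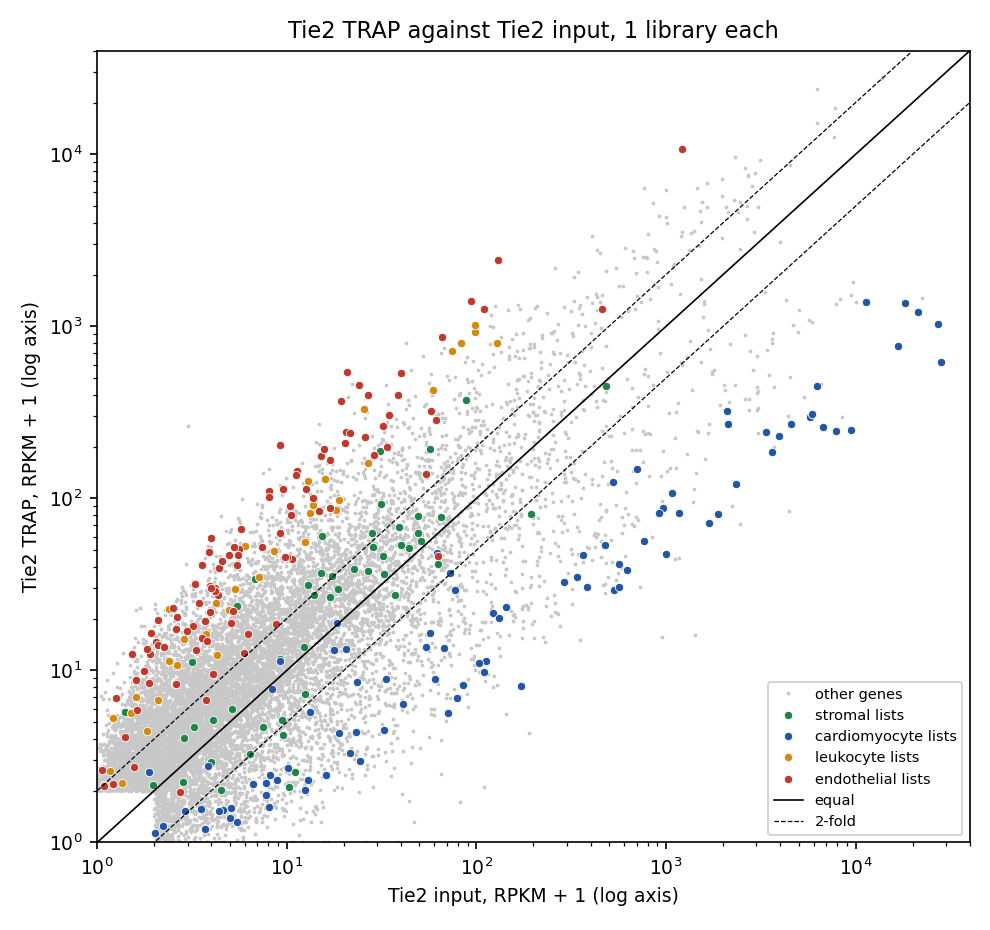
Tie2 TRAP against Tie2 input for the 12697 genes, as RPKM + 1 on log axes, with 1 library on each axis. Colours mark the endothelial, leukocyte, stromal and cardiomyocyte lists, the solid line marks equal levels and the dashed lines 2-fold. Of the genes shown, 95 of 101 endothelial genes lie above the upper dashed line and 80 of 92 cardiomyocyte genes below the lower one.

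Timp4, an inhibitor of matrix metalloproteases, had the largest difference among named genes at 10 RPKM or more, at 19.7 RPKM in input but 545 RPKM in TRAP, 27.7-fold higher (26.2 to 29.2). Its level was 12.3 to 22.7 RPKM in CAG TRAP. Tie2 TRAP thus stood above every other library, as it did for 60.3% of all genes. The genes that came next code for secreted, membrane and granule proteins and for an enzyme of Notch signalling. Cytl1, a secreted cytokine-like protein listed here as endocardial, was read at 18.3 and 365 RPKM. Tm4sf1, a tetraspanin-like membrane protein of endothelial cells, was read at 6.47 and 139 RPKM. Tmem88, a membrane protein that dampens Wnt signalling, was read at 19.9 and 387 RPKM. Srgn, the core protein of secretory granules in blood and endothelial cells, was read at 7.05 and 148 RPKM. Mfng, a glycosyltransferase that modifies Notch receptors, was read at 3.52 and 78.1 RPKM. Aqp1, the water channel of capillaries, reached 1408 RPKM from 92.3, and Bst2, an interferon-inducible surface protein, 1377 RPKM from 91.3. Of the 100 genes with the largest difference at 10 RPKM or more, all at 3.32 or above, 26 were in the endothelial lists, 2 in the leukocyte lists and 0 in the cardiomyocyte lists. Of the 100 with the smallest, all at an absolute difference of 3.52 or more, 28 were in the cardiomyocyte lists, 13 were mitochondrially encoded and 6 were small nuclear, small nucleolar or micro RNAs.

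Promoters of genes that stood at the ends of this range are shown because endothelial and muscle genes are known to differ in the factors that bind near their starts, ETS factors in endothelium and SRF and MEF2 in muscle. The sequences are from RefSeq on build GRCm38.p6, run from 250 bases before the annotated start to 50 bases after it, and are written 5′ to 3′ on the strand of the gene. Capitals mark the ETS core AGGAAG, or its reverse complement, in Timp4 (chr6:115252156-115252455, minus strand), Cav1 (chr6:17306085-17306384, plus strand) and Aqp1 (chr6:55336049-55336348, plus strand). They mark the CArG box, the SRF motif, in Myl3 (chr9:110763428-110763727, plus strand) and Myl7 (chr11:5898733-5899032, minus strand), whose levels follow below. Each window holds 1 match of its motif, 111 bases before the start in Timp4, 29 in Aqp1, 85 in Myl3 and 61 in Myl7, and after the start in Cav1. No marked match overlaps one of the other motifs searched. These windows were chosen because they hold the motif, so a match in them is not a result. At the upper end, Cytl1, Tm4sf1, Fam70b and Myct1 also held the ETS core. Srgn, Tspan13, Bst2 and another window of Cav1 did not, and Ly6c1 held it in a window but not in another. At the lower end, Myl2, Tnnc1 and Fabp3 held no CArG box, and Fabp3 held an ETS core.
Timp4: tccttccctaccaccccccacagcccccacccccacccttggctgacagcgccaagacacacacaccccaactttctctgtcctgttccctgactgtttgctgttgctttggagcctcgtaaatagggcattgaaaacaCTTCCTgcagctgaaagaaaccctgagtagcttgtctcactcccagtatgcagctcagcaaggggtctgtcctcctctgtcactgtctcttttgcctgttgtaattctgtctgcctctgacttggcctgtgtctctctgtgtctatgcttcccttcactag
Cav1: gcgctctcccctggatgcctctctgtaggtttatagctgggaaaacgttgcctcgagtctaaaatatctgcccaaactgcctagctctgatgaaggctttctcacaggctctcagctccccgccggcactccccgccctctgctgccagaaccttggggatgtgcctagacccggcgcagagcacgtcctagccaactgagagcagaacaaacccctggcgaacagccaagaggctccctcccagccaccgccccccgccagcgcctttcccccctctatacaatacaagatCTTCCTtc
Aqp1: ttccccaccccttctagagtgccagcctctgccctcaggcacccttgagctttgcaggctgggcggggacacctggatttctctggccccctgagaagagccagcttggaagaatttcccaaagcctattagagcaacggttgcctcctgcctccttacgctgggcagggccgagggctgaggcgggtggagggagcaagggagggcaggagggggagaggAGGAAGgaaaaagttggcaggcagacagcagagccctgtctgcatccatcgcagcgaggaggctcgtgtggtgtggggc
Myl3: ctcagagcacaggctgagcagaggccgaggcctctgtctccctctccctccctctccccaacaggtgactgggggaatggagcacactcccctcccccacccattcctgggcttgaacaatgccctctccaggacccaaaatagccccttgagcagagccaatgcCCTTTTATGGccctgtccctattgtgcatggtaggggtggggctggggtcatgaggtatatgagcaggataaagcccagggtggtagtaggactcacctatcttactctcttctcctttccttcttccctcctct
Myl7: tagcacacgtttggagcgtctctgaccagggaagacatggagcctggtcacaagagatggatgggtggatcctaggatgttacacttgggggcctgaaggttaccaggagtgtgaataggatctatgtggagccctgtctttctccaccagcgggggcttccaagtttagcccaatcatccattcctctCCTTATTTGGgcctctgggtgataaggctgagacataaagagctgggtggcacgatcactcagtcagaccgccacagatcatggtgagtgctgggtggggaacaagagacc

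Both strands of such windows were searched for AGGAAG, the GATA core AGATAA, the KLF core CACCC, the MEF2 site and the CArG box. Of all 32851 promoters of the RefSeq table, 35.4% held the ETS core, 11.2% the GATA core, 57.5% the KLF core, 3.19% the MEF2 site and 1.63% the CArG box. Of the 32 promoters found for 23 of the 28 sarcomere genes, 18.8% held the ETS core, 12.5% the MEF2 site and 18.8% the CArG box. The GATA core was in 25.0% of them and the KLF core in 68.8%. Of the 21 found for 18 of the 21 genes of cardiomyocyte energy metabolism, 9.52% held the ETS core, 4.76% the MEF2 site and 0 the CArG box. Here the GATA core was in 14.3% and the KLF core in 71.4%. The symbols of 57 of the 100 highest and 60 of the 100 lowest genes matched the table, and of 20 of 35 pan-endothelial genes. That is too small a part of each of these sets to compare them, and the check is void for them. A match describes letters in a window and not a bound site.

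The endothelial lists together, 104 genes in the table, had 95 genes past 2-fold higher in TRAP and 0 lower, with a median difference of 2.84 against 0.61 for all genes. Their share of the reads went from 0.523% to 4.24%, an 8.10-fold gain. In the unoperated CAG hearts their median was -0.25. Of the 104, 101 reached 1 RPKM in either library, 15 of these through TRAP alone, and a gene below 1 RPKM in both cannot pass 2-fold. Counts and medians are therefore given over all genes of a list in the table.

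All 35 pan-endothelial genes were past 2-fold higher, with a median of 3.32. Tek, the gene whose promoter drives the Cre, was read at 2.59 RPKM in input but 40.0 RPKM in TRAP, with 1.13 to 2.79 RPKM in CAG TRAP. Kdr, the main VEGF receptor, was read at 3.18 and 29.3 RPKM, with 1.81 to 3.61 RPKM in CAG TRAP. Both receptors stood above every other library in Tie2 TRAP, as 60.3% of all genes did. Sox18, a transcription factor of vessel and lymphatic fate, went from 38.9 to 532 RPKM. Cldn5, the tight junction claudin, went from 14.2 to 176 RPKM. Egfl7, a matrix protein secreted by endothelium, was the most abundant of the list in input after Ly6c1 and Ly6a, and went from 56.9 to 319 RPKM. Palmd, a paralemmin-related protein, had the smallest difference of the list, from 7.81 to 17.6 RPKM.

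The sub-lists of the vascular bed ranked from capillary to lymphatic. All 17 capillary genes were past 2-fold higher, with a median of 3.04. Of the 17 arterial genes 16 were higher, with a median of 2.73, of the 13 venous genes 11, with 2.38, of the 13 endocardial genes 11, with 2.18, and of the 10 lymphatic genes 6, with 1.66. None of their genes was past 2-fold lower. Whether the order of these medians reflects more than the genes chosen for each list was not tested.

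Among capillary genes Fabp4, the fatty acid binding protein of capillary endothelium, was read at 1219 RPKM in input but 10760 RPKM in TRAP. It was among the 10 highest levels of TRAP, the rest of which carried names of ribosomal protein genes, of a ribosomal protein pseudogene or of predicted genes. Its CAG TRAP levels were 785 to 1603 RPKM. Gpihbp1, which holds lipoprotein lipase on the capillary surface, went from 109 to 1256 RPKM, against 72.9 to 93.1 RPKM in CAG TRAP. Both stood above every other library, as 60.3% of all genes did. Cd36, the fatty acid transporter, went from 13.7 to 83.3 RPKM. Its Tie2 input was below the other inputs, which held 64.5 to 83.3 RPKM, and its Tie2 TRAP level was within the 21.8 to 133 RPKM of CAG TRAP, so its difference rests on the Tie2 input library. Car4, a membrane carbonic anhydrase, went from 10.2 to 136 RPKM. Sparc, a matrix protein made by several cell types, had the smallest difference, from 458 to 1254 RPKM.

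Arterial genes included the Notch ligand Dll4, at 2.92 RPKM in input but 30.1 RPKM in TRAP, and its target Hey1, at 3.53 and 42.4 RPKM. Gja4, the connexin of arterial endothelium, was read at 12.7 and 99.8 RPKM, and Efnb2, the ephrin that marks arteries, at 2.45 and 23.5 RPKM. Jag1, another Notch ligand, was the arterial gene that stayed within 2-fold on the log2(RPKM + 1) scale, at 0.571 and 1.73 RPKM. The venous marker Ephb4, the receptor of Efnb2, was read at 15.8 and 86.5 RPKM. Vwf, the clotting factor carrier stored in endothelium, was read at 9.45 and 89.1 RPKM. Nr2f2, the transcription factor of venous identity, was read at 3.10 and 8.53 RPKM. Lrg1, a secreted glycoprotein of venules that other cells also make, was at 61.5 and 45.2 RPKM, and Sele, an adhesion molecule of inflamed venules, stayed below 1 RPKM. Endocardial genes other than Cytl1 included Npr3, the natriuretic peptide clearance receptor, at 2.29 and 30.8 RPKM, and Bmp6 at 4.74 and 65.7 RPKM. Nfatc1, the transcription factor of the endocardium, was read at 2.32 and 12.2 RPKM.

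Lymphatic genes were split. Lyve1, a hyaluronan receptor of lymphatic endothelium and of some macrophages, went from 4.54 to 45.8 RPKM, and Flt4, the VEGF-C receptor, from 2.69 to 18.5 RPKM. Prox1, the transcription factor that sets lymphatic identity and is also made in heart muscle, was lower in TRAP, at 1.72 and 0.971 RPKM, within 2-fold. In the CAG TRAP libraries Prox1 lay between 0.936 and 1.71 RPKM and in the 6 inputs between 1.72 and 2.82 RPKM, so the Tie2 TRAP level was inside the CAG TRAP range. Pdpn, a membrane glycoprotein shared with stromal cells, was read at 2.73 and 5.71 RPKM.

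**Figure D3:**
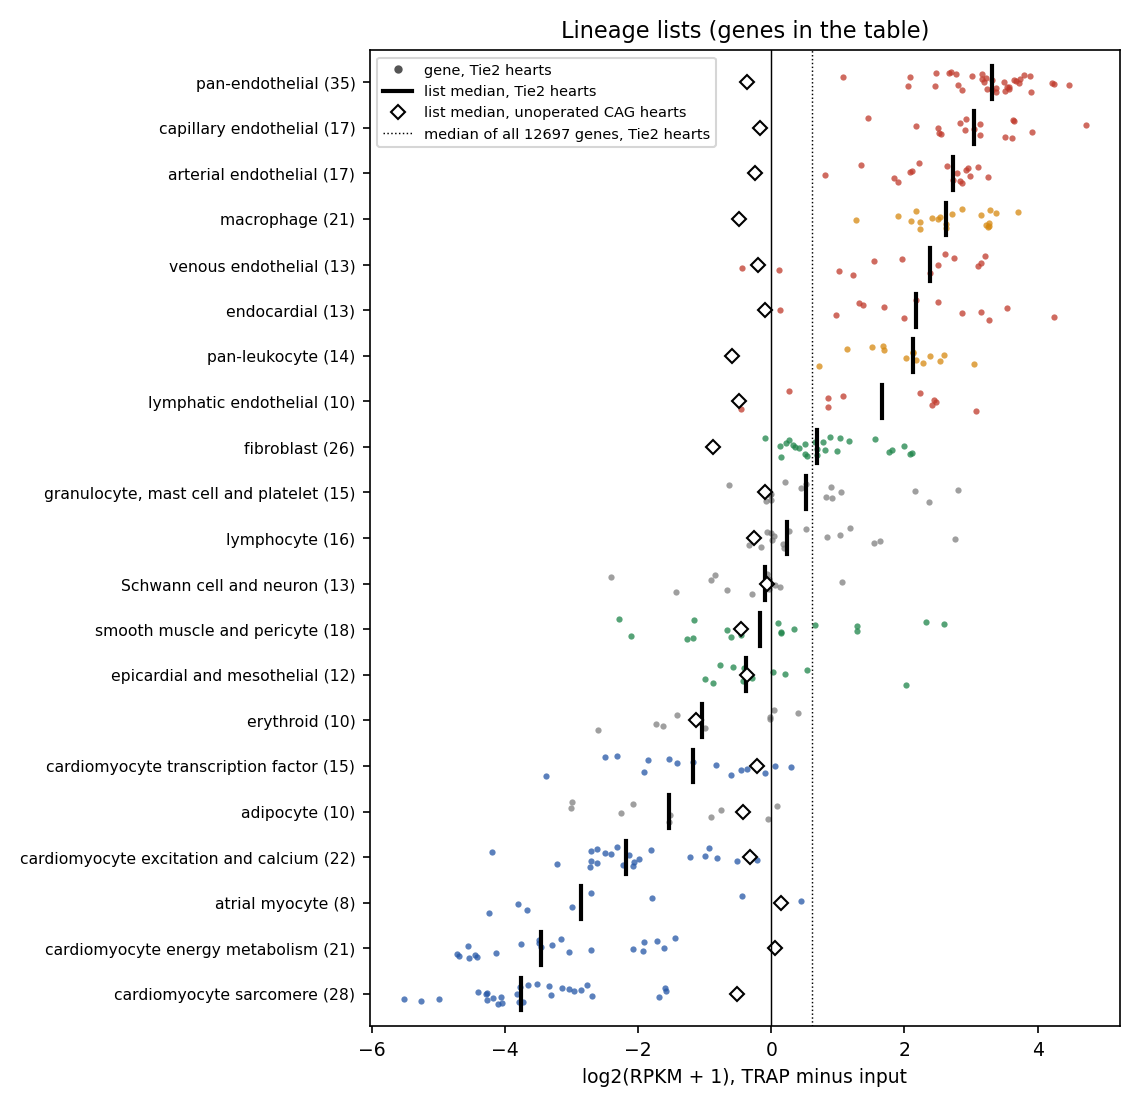
Difference in log2(RPKM + 1), TRAP minus input, for the genes of 21 lineage lists in Tie2 hearts, with the number of genes in the table in brackets. Points are genes, black bars the list medians, diamonds the list medians in unoperated CAG hearts and the dotted line the median of all 12697 genes at 0.61; medians run from 3.32 for pan-endothelial genes to -3.75 for sarcomere genes, while the diamonds stay between -1.13 and 0.15.

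Leukocyte transcripts were higher in TRAP along with endothelial ones. The macrophage and pan-leukocyte lists together, 35 genes, had 34 past 2-fold higher and 0 lower, a median of 2.41, and a share of reads that went from 0.0891% to 0.704%, 7.90-fold higher. In unoperated CAG hearts their median was -0.54. Tyrobp, a signalling adaptor of myeloid cells, was read at 97.7 RPKM in input but 1024 RPKM in TRAP, against 63.9 to 108 RPKM in CAG TRAP. C1qa, a complement chain that tissue macrophages make, was read at 97.6 and 927 RPKM, against 67.0 to 86.8 RPKM in CAG TRAP. Fcer1g, the Fc receptor chain, was read at 24.5 and 331 RPKM, against 9.19 to 28.6 RPKM in CAG TRAP. All 3 stood above the 6 inputs and the 5 CAG TRAP libraries, as 60.3% of all genes did. Csf1r, the receptor on which macrophages depend, went from 17.1 to 84.3 RPKM, Cd68, a lysosomal protein, from 12.2 to 80.7 RPKM, and Emr1, the surface marker F4/80, from 1.39 to 21.9 RPKM. Ptprc, the common leukocyte antigen CD45, was low in both, at 0.349 and 1.22 RPKM. It was the gene of the 35 within 2-fold on the log2(RPKM + 1) scale, though 3.49-fold higher by ratio. Whether this RNA came from leukocytes that carry the tag was not tested.

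Other blood lineages differed from one another. Of 16 lymphocyte genes 7 reached 1 RPKM, and 5 were past 2-fold higher, or 2 with the median of all genes set to 0. The median of the 16 was 0.23. Those of B cells were among them, with Ighm, the IgM heavy chain, at 7.13 and 54.2 RPKM and Cd79a, of the B cell receptor, at 1.05 and 4.98 RPKM. The chains of the T cell receptor complex Cd3d, Cd3e and Cd3g stayed below 1 RPKM in both libraries. Of 15 granulocyte, mast cell and platelet genes 4 were past 2-fold higher, or 3 with the median of all genes set to 0. The median of the 15 was 0.52, against 0.61 for all genes. Over all 12697 genes 34.1% were past 2-fold higher, a share that neither this list nor the lymphocyte list exceeded. The higher ones included the mast cell proteases Cma1, at 3.07 and 27.6 RPKM, and Mcpt4, at 3.42 and 18.8 RPKM. S100a9, a granulocyte gene, was at 27.3 and 25.8 RPKM. Erythroid genes went the other way, with 5 of 10 past 2-fold lower and a median of -1.04. Hba-a1, an alpha globin, was read at 1472 and 241 RPKM, and Hbb-b1, a beta globin, at 758 and 245 RPKM. Hba-a1 was at 21.7 to 103 RPKM in CAG TRAP, so both kinds of TRAP library held less than the inputs, which ran from 568 to 1472 RPKM. Globin copies are near-identical and their reads cannot be divided with certainty.

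Cardiomyocyte transcripts were lower in TRAP. The 5 cardiomyocyte lists together, 94 genes, had 80 past 2-fold lower and 0 higher, a median of -2.70, and a share of reads that went from 21.9% to 1.36%, 16.1-fold lower. In unoperated CAG hearts their median was -0.23. All 28 sarcomere genes were past 2-fold lower, with a median of -3.75. Myl2, the ventricular regulatory light chain, was the most abundant transcript of input at 28102 RPKM and was read at 618 RPKM in TRAP, 45.5-fold lower. Its CAG TRAP levels were 16126 to 32371 RPKM. Tnnc1, the calcium sensor troponin C, went from 9481 to 249 RPKM, 38.1-fold lower, and Myl3, the ventricular essential light chain, from 7867 to 247 RPKM, 31.9-fold lower. A few genes differed about as much between the fractions of unoperated CAG hearts. Ttn, the giant spring protein, went from 4.10 to 0.578 RPKM, and from 4.08 to 0.533 RPKM in unoperated CAG hearts. Nebl, a thin filament protein, had the smallest difference of the list, from 3.59 to 0.534 RPKM, and went from 7.53 to 1.20 RPKM in unoperated CAG hearts. Over all 5 CAG TRAP libraries Nebl lay between 1.20 and 4.16 RPKM, above its Tie2 TRAP level.

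All 21 genes of cardiomyocyte energy metabolism were past 2-fold lower, with a median of -3.46, while the same list stood at 0.05 in unoperated CAG hearts. Mb, the oxygen store myoglobin, was read at 16799 RPKM in input but 768 RPKM in TRAP, against 18838 to 20678 RPKM in CAG TRAP. Fabp3, the fatty acid binding protein of muscle, was read at 6723 and 260 RPKM, against 8160 to 12418 RPKM in CAG TRAP. Ckm, muscle creatine kinase, was read at 1884 and 80.2 RPKM. For excitation and calcium handling 17 of 22 genes were past 2-fold lower, with a median of -2.18. Atp2a2, the calcium pump SERCA2, which other cell types also use, was read at 522 and 123 RPKM, and Ryr2, the calcium release channel, at 15.1 and 1.45 RPKM, with 4.05 to 8.19 RPKM in CAG TRAP. Hrc, a calcium-binding protein of the sarcoplasmic reticulum, was read at 561 and 29.7 RPKM. Kcnip2, a subunit of a potassium channel, stayed just within 2-fold on the log2(RPKM + 1) scale, at 71.6 and 35.7 RPKM.

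Cardiac transcription factors were less uniform, with 8 of 15 past 2-fold lower and a median of -1.17. Nkx2-5, the homeobox factor of heart muscle, went from 84.4 to 7.21 RPKM and Tbx5 from 9.14 to 1.70 RPKM. Gata4 and Gata6, zinc finger factors also known outside muscle, were at 19.4 and 12.4 RPKM and at 7.40 and 6.84 RPKM. Hand2 was at 61.0 and 47.2 RPKM. Mef2a, at 8.19 and 10.3 RPKM, and Mef2d, at 17.3 and 17.9 RPKM, were about level between the fractions on the deposited scale.

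Atrial myocyte genes were lower as well, 6 of 8 past 2-fold with a median of -2.85. Myl7, the atrial light chain, was read at 5867 RPKM in input but 309 RPKM in TRAP, Sln, an atrial regulator of the calcium pump, at 2135 and 268 RPKM, and Nppa, the natriuretic peptide, at 3374 and 242 RPKM. The inputs of operated CAG hearts held far less of these, with 12.5 to 23.6 RPKM of Myl7 and 5.96 to 11.9 RPKM of Sln. The CAG input without surgery held 2724 RPKM of Myl7. Atrial transcripts were therefore abundant in the input of unoperated hearts of both lines and far lower in that of the operated ones. Against the mean of log2(RPKM + 1) over all 6 inputs the difference of Myl7 changed sign to 1.53, that of Sln to 2.34 and the median of the list to 0.88.

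The TRAP level of the cardiomyocyte list genes was not a fixed share of their input level. Some of these genes, Atp2a2, Gata4 and Gata6 among them, are also known from other cells. Which cells their TRAP reads came from was not tested. Over 45 cardiomyocyte genes at 100 RPKM or more in input, the TRAP level was 7.19% of the input level in the median, with quartiles of 5.14% and 9.94%. It ran from 2.20% for Myl2 to 23.6% for Atp2a2, a 10.8-fold span. By input level the median was 17.5% for 20 genes between 1 and 10 RPKM, 16.9% for 26 between 10 and 100 RPKM, 9.28% for 21 between 100 and 1000 RPKM, 5.23% for 18 between 1000 and 10000 RPKM, and 5.13% for the 6 above that. Over all members the median difference also went down with the input level, from 0.56 between 1 and 10 RPKM to -2.22 above 1000 RPKM, where 153 genes held 46.4% of the reads of input and 22% of those of TRAP. Binned by the mean of the 6 inputs over the same levels, it went from 0.61 to -2.48. Genes below 1 RPKM in input are left out of this, since they are members only where TRAP is higher.

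The stromal lists, 56 genes together, lay between the endothelial and the muscle lists, with 13 past 2-fold higher, 5 lower and a median of 0.34. The shares over all 12697 genes were 34.1% higher and 12.3% lower. Of 26 fibroblast genes 8 were past 2-fold higher and 0 lower, with a median of 0.69, close to the 0.61 of all genes, and -0.88 in unoperated CAG hearts. Under the trimmed mean the fibroblast median was -0.01, and 5 genes were past 2-fold higher with the median of all genes set to 0. Dcn, the collagen-binding proteoglycan decorin, was read at 87.0 RPKM in input but 372 RPKM in TRAP, against 44.3 to 87.9 RPKM in CAG TRAP and 87.0 to 142 RPKM in the inputs. Lum, a related proteoglycan, was read at 4.47 and 22.8 RPKM, and Dpt, the matrix protein dermatopontin, at 55.7 and 192 RPKM. Tie2 TRAP held more Dcn than any other library, as it did for 60.3% of all genes. The collagen chain Col1a1 was read at 49.9 and 55.6 RPKM, Pdgfra, the receptor that marks fibroblasts, at 1.86 and 3.07 RPKM, and Gsn, the actin-severing protein gelsolin, at 482 and 448 RPKM. The members of the list thus spread from -0.10 to 2.12.

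Mural cell genes went both ways. Of 18 smooth muscle and pericyte genes 4 were past 2-fold higher and 5 lower, with a median of -0.17. With the median of all genes set to 0, 2 were higher and 9 lower. Over all 12697 genes the shares were 34.1% and 12.3%, or 16.3% and 21.7% with the median set to 0. Mustn1, a small nuclear protein of muscle and skeleton, was higher at 30.1 and 188 RPKM, and its CAG TRAP levels were 18.2 to 26.9 RPKM. Mcam, an adhesion molecule shared with endothelium, was higher at 5.80 and 32.9 RPKM. The other two were Kcnj8, a potassium channel of pericytes, at 14.2 and 35.9 RPKM, and Vtn, the adhesive protein vitronectin, at 11.9 and 30.5 RPKM. The lower ones included Acta2, smooth muscle actin, at 192 and 79.6 RPKM, Myh11, smooth muscle myosin, at 8.55 and 3.22 RPKM, and Cnn1, calponin, at 10.1 and 1.57 RPKM. Pdgfrb, the growth factor receptor of pericytes, was within 2-fold at 11.3 and 12.7 RPKM, and so was Rgs5, a regulator of G protein signalling in pericytes, at 31.7 and 35.2 RPKM. Wt1, a transcription factor of epicardium that some endothelial cells also express, went from 0.405 to 4.74 RPKM. The other 11 epicardial and mesothelial genes stayed within 2-fold on the log2(RPKM + 1) scale, with 3 lower once the median of all genes was set to 0. By ratio of RPKM, Msln was 2.42-fold lower, at 5.43 and 2.25 RPKM.

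Several transcripts of fat and lung were lower in TRAP, while those of nerve went both ways. Of 10 adipocyte genes 6 were past 2-fold lower, with a median of -1.53, among them Cfd, the adipocyte protease adipsin, at 92.8 and 10.7 RPKM. Like the atrial genes, Cfd was high in the inputs without surgery and at 2.25 to 5.21 RPKM in those of operated hearts. Of 13 Schwann cell and neuron genes 2 were past 2-fold lower and 1 higher, with a median of -0.09, and 12.3% of all genes were lower. Dbh, an enzyme of noradrenaline synthesis, was lower at 8.47 and 0.799 RPKM. Prx, a Schwann cell and endothelial periaxin, was higher at 0.209 and 1.53 RPKM. Scgb1a1, the secretoglobin of airway club cells, was read at 142 RPKM in Tie2 input but 4.56 RPKM in TRAP, against 14.8 RPKM in the CAG input without surgery and 0 to 0.367 RPKM in the operated inputs. This prompted a look at 10 lung epithelium markers, chosen after that value was seen. Of these, 9, Scgb1a1 among them, were higher in Tie2 input than in any of the 5 CAG inputs, as were 40.5% of all 12697 genes. Sftpc, the surfactant protein of alveolar cells, was at 18.6 RPKM in Tie2 input, 1.06 RPKM in TRAP and at most 0.187 RPKM in the CAG inputs. Of the 5 lung genes at 1 RPKM or more, 4 were past 2-fold lower in TRAP, and Scgb3a1, a secretoglobin, was within 2-fold at 17.8 and 13.6 RPKM. Summed over the 10 genes the level was 187 RPKM in Tie2 input, 20.7 RPKM in Tie2 TRAP and 1.31 to 17.6 RPKM in the CAG inputs. The part of lung RNA, lung endothelium included, in the results above was not tested.

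**Figure D4:**
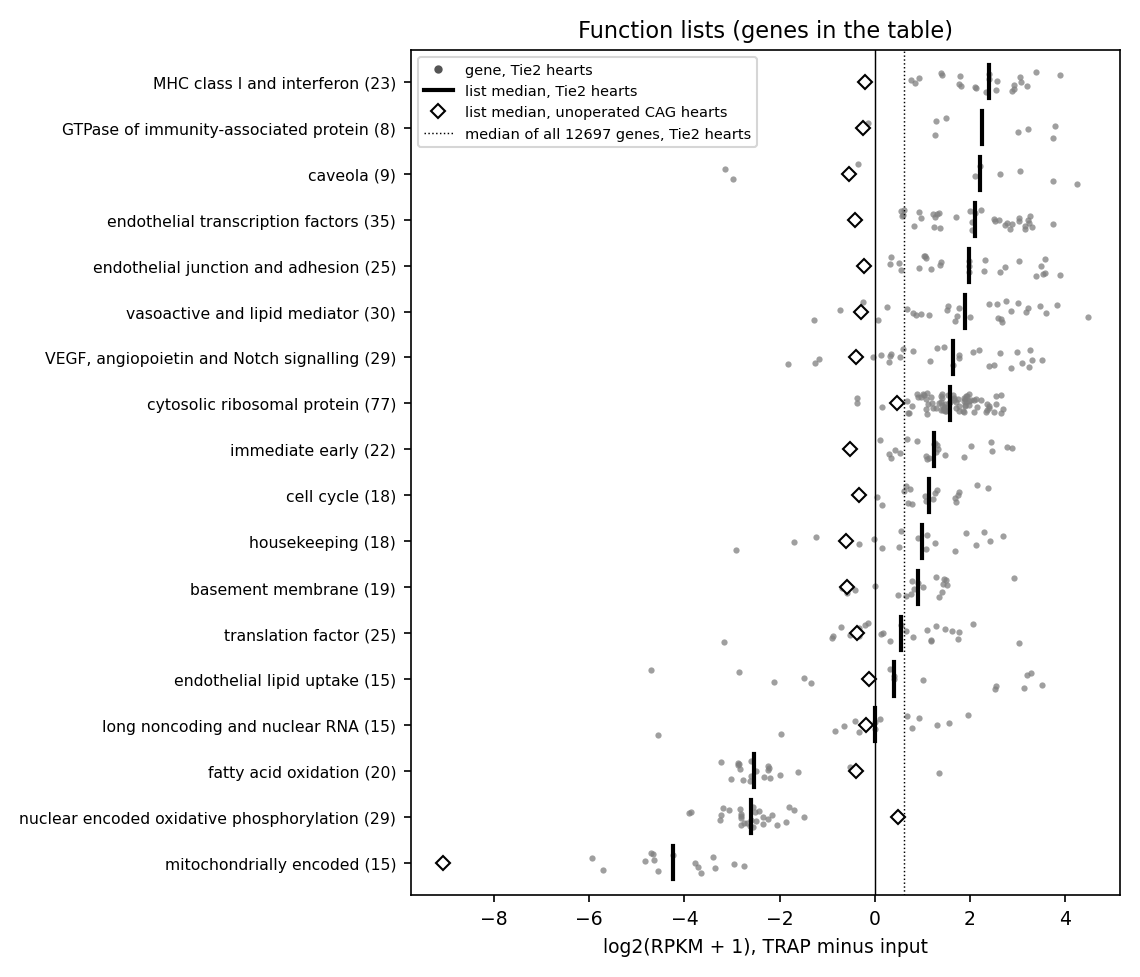
Difference in log2(RPKM + 1), TRAP minus input, for the genes of 18 lists by function in Tie2 hearts, with the number of genes in the table in brackets. Points are genes, black bars the list medians, diamonds the list medians in unoperated CAG hearts and the dotted line the median of all 12697 genes; medians run from 2.39 for MHC class I and interferon genes to -4.23 for mitochondrially encoded genes.

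Transcription factors of endothelium were higher in TRAP, 28 of 35 past 2-fold and 0 lower, with a median of 2.10. Elk3, an ETS factor, was read at 5.40 and 62.7 RPKM, Fli1, of the same family, at 1.77 and 23.6 RPKM, and Erg, an ETS factor that guards endothelial identity, at 9.70 and 43.2 RPKM. Klf2, a factor switched on by blood flow, was read at 31.7 and 241 RPKM. Gata2 went from 4.06 to 47.2 RPKM, which sets it apart from the Gata4 and Gata6 levels given above. Meox1 and Meox2, homeobox factors, went from 8.24 to 85.8 RPKM and from 0.755 to 8.98 RPKM. Foxo1, a target of insulin and angiopoietin signals, stayed just within 2-fold on the log2(RPKM + 1) scale, at 3.64 and 8.16 RPKM.

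Of 25 genes of junctions and adhesion 20 were past 2-fold higher and 0 lower, with a median of 1.97. Besides Pecam1, Cdh5 and Cldn5 they included Esam, an adhesion molecule of endothelial tight junctions, at 19.6 and 243 RPKM, and Icam2, a leukocyte ligand, at 20.5 and 240 RPKM. Tjp1, the scaffold ZO-1 found in many cell types, was read at 1.82 and 5.40 RPKM, and Cdh13, a cadherin without a cytoplasmic part, at 40.9 and 51.4 RPKM.

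Among ligands and receptors of vessel growth, 18 of 29 genes were past 2-fold higher and 3 lower, with a median of 1.65. Receptors past 2-fold higher included Flt1, a VEGF receptor, at 3.95 and 45.7 RPKM, Tie1, the partner of Tie2, at 15.9 and 167 RPKM, and Notch4, the endothelial Notch receptor, at 3.76 and 28.4 RPKM. The 3 lower genes were ligands of VEGF receptors or of Tie2. Vegfa was read at 33.6 RPKM in input but 8.72 RPKM in TRAP, against 14.3 to 22.2 RPKM in CAG TRAP, below every other library, as 16.4% of all genes were. Vegfb was read at 295 and 123 RPKM, and Angpt1, the activating ligand of Tie2, at 1.67 and 0.176 RPKM. Angpt2, the angiopoietin that endothelium itself makes, was higher at 0.486 and 4.07 RPKM, and so was Vegfc, at 0.920 and 15.4 RPKM. Notch3, the receptor of mural cells, was within 2-fold at 3.09 and 4.17 RPKM.

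Vasoactive and lipid mediator genes had 21 of 30 past 2-fold higher and 1 lower, with a median of 1.89. Nos3, the endothelial nitric oxide synthase, was read at 3.35 and 26.6 RPKM, and Spns2, the exporter of sphingosine-1-phosphate, at 2.71 and 44.0 RPKM. Ramp2, which turns Calcrl into the adrenomedullin receptor, was read at 66.2 and 743 RPKM, and Calcrl at 0.326 and 6.05 RPKM. The endothelin receptors differed in direction, with Ednrb, known from endothelium, at 1.42 and 14.3 RPKM and Ednra, known from smooth muscle, at 5.75 and 1.77 RPKM. Aplnr, the apelin receptor, was read at 7.84 and 69.8 RPKM and its ligand Apln at 1.65 and 14.7 RPKM. Thbd, the thrombomodulin that curbs clotting, was read at 3.39 and 38.6 RPKM.

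The caveola and lipid uptake lists held genes that differed in both directions. Of 9 caveola genes 6 were past 2-fold higher and 2 lower. Cav2 was read at 4.61 and 73.8 RPKM and Ptrf, the coat protein cavin-1, at 76.9 and 333 RPKM, while the muscle forms Cav3, at 128 and 15.5 RPKM, and Murc, cavin-4, at 16.7 and 1.01 RPKM, were the 2 lower ones. Of 15 lipid uptake genes 7 were past 2-fold higher and 5 lower, with a median of 0.41 that was at or below 0 under the median, trimmed mean and quantile scales. Scarb1, a lipoprotein receptor, was read at 8.10 and 82.0 RPKM and Pparg, a fatty acid sensing nuclear receptor, at 1.6 and 24.2 RPKM. Lpl, the lipase that muscle and fat cells make and Gpihbp1 carries, was read at 329 and 129 RPKM, and was lower in TRAP of unoperated CAG hearts too, at 826 and 174 RPKM. The fatty acid transporter Slc27a1 was read at 31.8 and 6.55 RPKM. Of 19 basement membrane genes 9 were past 2-fold higher and 0 lower, with a median of 0.91, but 1 was higher and 3 lower with the median of all genes set to 0. Col4a1, the main collagen of vessel basement membrane, was at 54.2 and 140 RPKM and Lama4, its endothelial laminin, at 9.04 and 25.8 RPKM, while Lama2, the muscle laminin, was at 7.23 and 4.50 RPKM.

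Related proteins with a muscle form and another form were paired to see how a function was divided. The 24 pairs were chosen after list values were seen. The muscle form was past 2-fold lower in 23 of the 24, with a median of -3.15. The other form was past 2-fold higher in 11 and lower in 5. Of all 12697 genes 34.1% were higher and 12.3% lower. The median of the other forms was 0.59, close to the 0.61 of all genes, and 12 of the 24 were below 0.61. The other form was above the muscle form in 3 pairs in input and in 14 pairs in TRAP. Fabp4 stood at 0.181 of Fabp3 in input and at 41.4 times Fabp3 in TRAP. Eef1a1, the general elongation factor, was read at 408 and 3337 RPKM and Eef1a2, its muscle and nerve form, at 691 and 76.6 RPKM. Neither Tie2 TRAP level overlapped the CAG TRAP ranges of 164 to 209 and 535 to 842 RPKM. Of all genes, 60.3% stood above and 16.4% below every other library in Tie2 TRAP. Cox6a1, a general subunit of cytochrome oxidase, was read at 796 and 2076 RPKM and the heart form Cox6a2 at 27054 and 1032 RPKM. Cpt1a, the general gatekeeper of fatty acid oxidation, was read at 2.06 and 6.82 RPKM and the muscle form Cpt1b at 2.69 and 0.205 RPKM. The 5 other forms past 2-fold lower, each along with its muscle form, were Ldha, Cox7a2, Hk1, Slc25a5 and Ppargc1b. Only in the pair of coactivators Ppargc1a and Ppargc1b was the muscle form not the lower one in difference, at -1.85 and -1.96. By ratio of RPKM this pair went with the rest, since Ppargc1b stood at 1.49 times Ppargc1a in input and 2.00 times in TRAP.

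**Figure D5:**
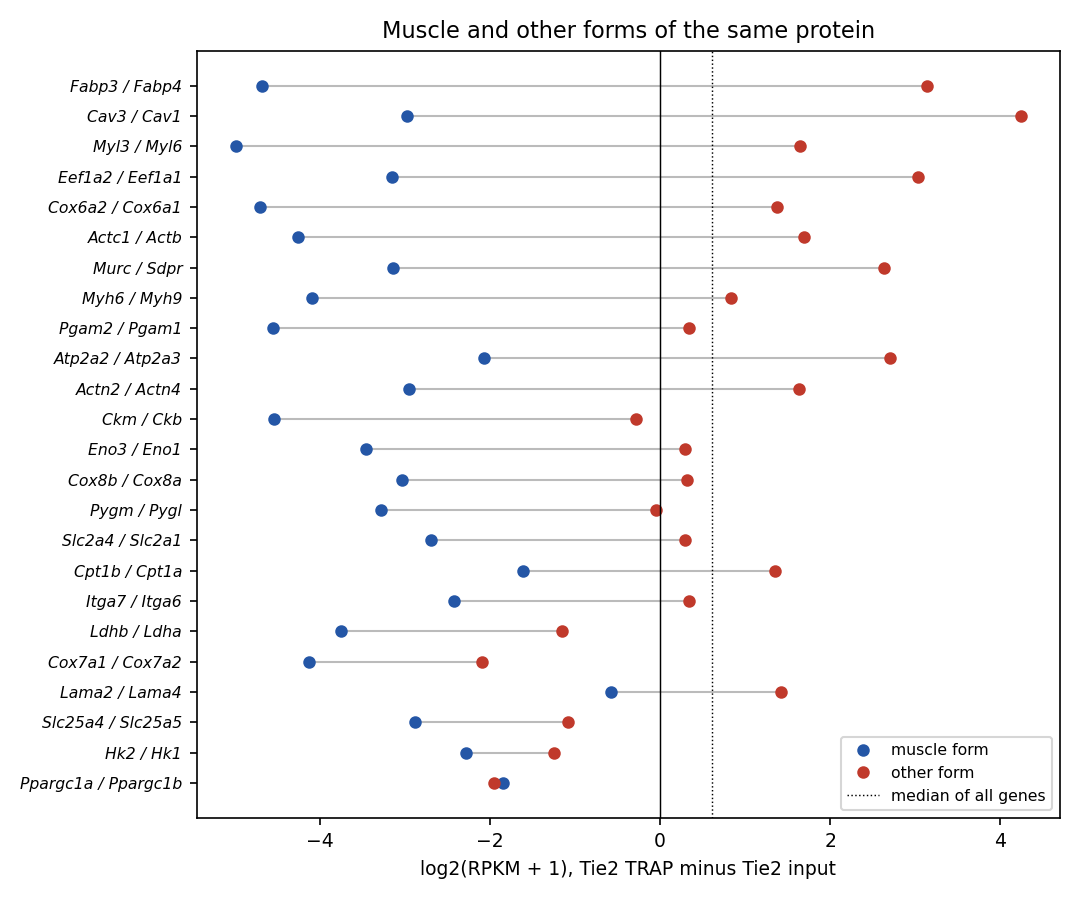
Difference in log2(RPKM + 1), TRAP minus input, in Tie2 hearts for 24 pairs of related genes. Blue points are the muscle form, red points the other form and the dotted line the median of all genes; the red point lies to the right of the blue one in 23 pairs and to the left for Ppargc1a and Ppargc1b.

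The listed transcripts for the respiratory chain were lower whichever genome encoded them. All 29 nuclear encoded genes of the oxidative phosphorylation list were past 2-fold lower, with a median of -2.60. In unoperated CAG hearts the same genes stood at 0.49. Outside the list, the cytochrome oxidase subunit Cox6a1 was past 2-fold higher, at 796 and 2076 RPKM. Cox8a was within 2-fold at 1528 and 1894 RPKM, and Cox7a2 was lower at 3619 and 845 RPKM. Cox4i1, a subunit of cytochrome oxidase, was read at 8272 and 1449 RPKM, and Cycs, cytochrome c, at 474 and 30.9 RPKM. Of 20 fatty acid oxidation genes 18 were past 2-fold lower and 1, Cpt1a, higher, with a median of -2.54. All 15 mitochondrially encoded genes were past 2-fold lower, with a median of -4.23. This list was low in TRAP of the CAG hearts too, with a median of -9.07 without surgery. Mitochondrially encoded genes took 3.17% of the reads of Tie2 input, 13.7% to 15.9% of those of the 5 CAG inputs, 0.183% of those of Tie2 TRAP and 0.0259% to 0.293% of those of CAG TRAP. The Tie2 input thus stood apart from the other inputs, and its part in the size of the other differences was not tested. With the CAG input in its place, 37.1% of genes were past 2-fold higher and 12.6% lower.

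Ribosomal protein transcripts were higher in TRAP, 67 of 77 past 2-fold and 0 lower, with a median of 1.58 against 0.46 in unoperated CAG hearts. With the median of all genes set to 0, 38 were past 2-fold higher. Rps29, of the small subunit, was the most abundant gene of TRAP at 27878 RPKM, from 13763 RPKM in input. Rpl13a went from 429 to 2766 RPKM, and Rpl36, at 3971 and 3077 RPKM, was 1 of 2 with a lower level, within 2-fold. Many of these genes have pseudogenes with near-identical sequence, so single values are uncertain. Of 25 translation factors 10 were past 2-fold higher and 1, Eef1a2, lower, with a median of 0.55 that was slightly below 0 under the median, trimmed mean and quantile scales. With the median set to 0, 5 were past 2-fold higher and 5 lower.

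Long noncoding and nuclear RNAs differed among themselves, with 3 of 15 past 2-fold higher, 2 lower and a median of 0.01. With the median of all genes set to 0, 1 was higher and 4 were lower. Over all 12697 genes 34.1% were higher and 12.3% lower, or 16.3% and 21.7% with the median set to 0. Malat1, retained in the nucleus, was read at 352 and 14.1 RPKM, within the 7.22 to 27.0 RPKM of CAG TRAP. Neat1, also nuclear, was read at 16.8 and 3.53 RPKM, and at 21.6 and 0.939 RPKM in unoperated CAG hearts. H19, an imprinted noncoding RNA of the cytoplasm, behaved otherwise, at 228 RPKM in Tie2 input but 182 RPKM in Tie2 TRAP against 46.4 to 77.1 RPKM in the CAG inputs and 2.73 to 7.38 RPKM in CAG TRAP. The Tie2 TRAP level of H19 was above that of every CAG library. SCARNA17, a small Cajal body RNA, was 94.7-fold lower in TRAP, at 1424 and 15 RPKM, and was at 883 and 115 RPKM in unoperated CAG hearts. Mir133a-2, the hairpin gene of a muscle microRNA, was 43.0-fold lower, at 64.1 and 1.49 RPKM, and was also low in CAG TRAP, at 28.6 and 1.52 RPKM without surgery.

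Common reference genes were not level between the fractions. Of 18 housekeeping genes 9 were past 2-fold higher and 3 lower, or 6 and 3 with the median of all genes set to 0. Of all 12697 genes 34.1% were higher and 12.3% lower. Actb, cytoplasmic actin, was read at 787 and 2537 RPKM, and Gapdh, a glycolytic enzyme, at 176 and 22.6 RPKM, while Hprt was at 46.3 and 51.5 RPKM. The Tie2 input level of Gapdh was above the CAG inputs, which held 38.8 to 80.3 RPKM. Its Tie2 TRAP level was within the 20.3 to 151 RPKM of CAG TRAP, so the size of its difference rests on the Tie2 input library. The genes past 2-fold lower were Gapdh, Pgk1, also glycolytic, at 81.9 and 24.5 RPKM, and Tfrc, the transferrin receptor, at 2.60 and 0.528 RPKM, which was also lower in TRAP of unoperated CAG hearts, at 6.30 and 1.34 RPKM.

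Genes of antigen presentation and interferon response were higher, 20 of 23 past 2-fold and 0 lower, with a median of 2.39. Besides Bst2, they included H2-D1, an MHC class I heavy chain, at 169 and 1267 RPKM, B2m, its light chain, at 482 and 2094 RPKM, and Psmb8, of the immunoproteasome, at 14.4 and 140 RPKM. MHC class I heavy chains are similar in sequence and single values are uncertain. Of 8 GIMAP genes, small GTPases of lymphocytes and endothelium, 7 were past 2-fold higher, 3 of which reached 1 RPKM through TRAP alone, and 4 were with the median of all genes set to 0. They included Gimap6 at 7.01 and 110 RPKM and Gimap4 at 3.71 and 36.7 RPKM. Gimap7 stayed below 1 RPKM. Both lists hold genes that endothelial cells and leukocytes share, and leukocyte transcripts moved with them as given above, and their part was not tested.

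Immediate early genes, which cells switch on within minutes of a stimulus, were past 2-fold higher in 15 of 22 cases and lower in 0, with a median of 1.25, and in 6 cases with the median of all genes set to 0. Ier2 was read at 11.4 and 67.9 RPKM, Egr1 at 2.44 and 8.61 RPKM and Fos at 0.727 and 2.70 RPKM. Cell cycle genes were past 2-fold higher in 11 of 18 cases and in 6 with the median of all genes set to 0, with a median of 1.15, 9 of the 16 at 1 RPKM or more reaching that level through TRAP alone. Ccnd1, the G1 cyclin, was read at 3.07 and 20.1 RPKM, and Birc5, a mitotic protein, at 0.513 and 3.87 RPKM. Mki67, the common marker of dividing cells, stayed below 1 RPKM at 0.255 and 0.390 RPKM.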

How the data were processed

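The values are RPKM, deposited by the authors in a table of 34306 genes that gives 1 transcript and its length for each. CASAVA 1.8.2, TopHat 1.4, HTSeq 0.5.3 and build NCBIM37 are named in the submitters' processing notes, with no order or settings. Of the 53 samples listed, 24 belong to a later deposit, whose titles the columns match. The first deposit also lists Tie2 TRAP samples, which have no column in the table and were not used. Each Tie2 fraction has titles ending l1 and l2, endings that the labels leave undefined, and 1 column in the table. The preparation, poly(A) selection and random priming, does not mark strand, per the labels' protocols, so overlapping and antisense genes cannot be separated. No column was left unused (0).

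RPKM times length was a whole multiple of 1 read, within 0.02 reads, for 233410 of 233410 positive values, which gave reads per library (26568988 to 94878619). A count of 0 allows 3 reads, or 0.0597 RPKM on 1 kb in Tie2 input and 0.0775 in Tie2 TRAP. Ratios carry exact binomial intervals (95%), whose width reflects counting error only.

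Differences of log2(RPKM + 1) were computed with Python 3.11.15, numpy 2.4.6, pandas 2.3.3 and scipy 1.17.1 in code tested on simulated data. The members and the 39 gene lists were chosen with earlier results of these data known. Medians and counts describe them and no test was run. Named genes were the 5 markers, the 15 largest and 15 smallest differences at 10 RPKM or more (without predicted genes, date-like symbols and pseudogenes), the 10 highest levels of each library, and in each list the extremes, the 3 most abundant genes and those against its majority. Other list genes named were chosen by their role after their values were seen. Promoters matched 8968 of 12697 members, 879 by an older name. Alternatives changed the pseudocount, filter, scaling, denominator, read minimum and length term.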

Additional observations from a re-analysis of the deposited data

Results flagged for a closer look

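The 20 lists given below were flagged. In each, the median difference over the genes at 1 RPKM or more had a sign in Tie2 hearts opposite to that in CAG hearts. This held in each of the 5 pairs of CAG TRAP and CAG input libraries, same-numbered after surgery. The fibroblast list (0.69 in Tie2 hearts, -1.03 to -0.88 in CAG hearts) changed sign in the same way. So did the granulocyte, mast cell and platelet (0.98), housekeeping (1.00) and long noncoding and nuclear RNA (0.67) lists. The difference between the lines was not tested, since the Tie2 hearts gave 1 library of each fraction, and genes below 1 RPKM in input enter only where TRAP is high. An opposite sign is not particular to these lists. The median of all 12697 genes was 0.61 in Tie2 hearts and -0.24 in unoperated CAG hearts, and 1750 genes were past 2-fold higher in Tie2 TRAP and lower in all 5 CAG pairs, with 486 the other way round.

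Among lineages the median was 3.32 for the pan-endothelial list (-0.36 to -0.06 in CAG hearts), 2.73 for the arterial endothelial list (-0.24 to -0.16 in CAG hearts), 2.44 for the venous endothelial list (-0.27 to -0.14 in CAG hearts), 2.34 for the endocardial list (-0.12 to -0.06 in CAG hearts) and 2.23 for the lymphatic endothelial list (-0.71 to -0.35 in CAG hearts). It was 2.63 for the macrophage list (-1.03 to -0.48 in CAG hearts), 2.13 for the pan-leukocyte list (-0.98 to -0.59 in CAG hearts) and 1.18 for the lymphocyte list (-0.44 to -0.24 in CAG hearts), which rests on 7 of 16 genes, 4 of them at 1 RPKM through TRAP alone, and is 0.23 over all 16. Among functions it was 2.23 for the endothelial transcription factors list (-0.43 to -0.32 in CAG hearts), 1.99 for the endothelial junction and adhesion list (-0.26 to -0.09 in CAG hearts) and 2.21 for the caveola list (-0.54 to -0.20 in CAG hearts). It was 1.71 for the VEGF, angiopoietin and Notch signalling list (-0.43 to -0.20 in CAG hearts), 2.21 for the vasoactive and lipid mediator list (-0.35 to -0.13 in CAG hearts) and 1.02 for the basement membrane list (-0.83 to -0.70 in CAG hearts). It was 2.39 for the MHC class I and interferon list (-0.33 to -0.13 in CAG hearts), 1.29 for the immediate early list (-0.60 to -0.42 in CAG hearts), 1.25 for the cell cycle list (-0.44 to -0.20 in CAG hearts) and 3.0 for the GTPase of immunity-associated protein list (-0.36 to -0.19 in CAG hearts). Downward, it was -3.46 for the cardiomyocyte energy metabolism list (0.05 to 0.17 in CAG hearts) and -2.60 for the nuclear encoded oxidative phosphorylation list (0.49 to 0.62 in CAG hearts).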

How the results depend on the processing

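Of 13 alternatives, 4 moved the counts of all genes by over 1.5 times. The 4335 genes past 2-fold higher became 2216 with a pseudocount of 5, 2066 with the median set to 0, 2002 with a trimmed mean of log ratios and 2566 with quantile normalization. The 1561 lower became 936, 2758, 2523 and 2426 in that order. In the unoperated CAG hearts a pseudocount of 0.1 gave 251 higher and 2363 lower genes against 111 and 814. The counts of the endothelial, cardiomyocyte and leukocyte lists stayed within 1.5 times under all 13. With the mean of log2(RPKM + 1) over the 6 inputs as denominator the sign changed for the atrial myocyte list (0.88), Myl7 (1.53), Sln (2.34) and Scgb1a1 (0.51), whose levels differ between operated and unoperated inputs. Of 403 values for the 31 list medians past 2-fold, 1 changed sign and 37, in 10 lists, were within 2-fold. Of 154 named genes, 3 changed sign.

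No paired analysis was possible because the Tie2 hearts gave 1 library of each fraction. For the same reason no library was left out. Depth limits genes near 1 RPKM, which rest on 50 or 39 reads per kilobase.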
